A study of Sus scrofa with 4 samples.

Results

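The genes described here are 8 chaperones and folding factors of the endoplasmic reticulum (ER), namely CRELD2, SDF2L1, MANF, HSPA5, HSP90B1, CALR, PDIA4 and HYOU1. They were chosen by name as a set whose leading members, CRELD2, SDF2L1 and MANF, were selected on their fold changes between the diets in these same arrays. Every row of the deposited table whose annotated symbol is one of these names was taken, which gave 11 probe sets for the 8 genes, out of 23999 probe sets tested and 6765 genes named on the array. Because the diet contrast chose them, their differences are given as a description and support nothing.

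The arrays compared liver RNA of piglets given L-carnitine at 500 mg per kg of diet with liver RNA of piglets on the same basal diet alone. All were male crossbred pigs, (German Landrace x Large White) x Pietrain, which weighed about 10 kg and were 4 weeks old at the start, were fed for 21 days and were killed at 7 weeks, 2.5 h after the last meal. Each diet had 8 pigs, and RNA of 4 pigs was combined per pool, so that each diet gave 2 pools and 2 Affymetrix porcine GeneChips. The spread between 2 pools of a diet is the only measure of error, and single animals cannot be seen. Standard errors given below combine a probe set's own spread with that of probe sets of similar signal. Of 15 hepatocyte markers, such as albumin and transthyretin, 14 had a probe set with 1 gene symbol, and all 14 lay above the median signal.

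Proteins bound for the blood, which the liver makes in bulk, are folded in the ER. HSPA5 (BiP) holds unfolded chains there, HYOU1 recharges it with nucleotide, HSP90B1 (GRP94) and the lectin CALR finish folding, and PDIA4 forms disulphide bonds. When unfolded chains pile up, the unfolded protein response, run by the sensors ATF6, IRE1 (ERN1) and PERK (EIF2AK3), raises transcription of these genes, and CRELD2, SDF2L1 and MANF are small soluble factors known from cell studies as targets of the same response.

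CRELD2, SDF2L1 and MANF had signals that were 2.67-fold, 2.26-fold and 2.09-fold as high in carnitine pools, and HYOU1 followed at 1.91-fold. HSPA5 and HSP90B1 were also higher in both carnitine pools, by smaller amounts, while the signals of CALR and PDIA4 overlapped between the diets. Over the 8 genes, with the brightest probe set of each, the median log2 fold change was 0.75, and all 8 values were above 0. The median over all probe sets was -0.018. Signals of different probe sets are on no common scale, so that levels are compared between diets only.

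For CRELD2, a cysteine-rich factor of the ER with EGF-like repeats, the arrays read 3101 and 2623 in carnitine pools, against 1316 and 866 in control pools. The means were 2862 ± 338 in carnitine pools and 1091 ± 318 in control pools (SD, n = 2 pools each), a log2 fold change (log2FC, carnitine minus control) of 1.42 with a standard error (SE) of 0.25 from the fit. The pools did not overlap, and the lower carnitine pool was 1.99 times as high as the higher control pool. In bulk liver RNA, a change in the share of a cell type and a change in RNA per cell cannot be told apart.
SDF2L1, a partner of BiP and its J-protein co-chaperones, gave 2113 and 1465 in carnitine pools, against 805 and 751 in control pools. Its means were 1789 ± 459 in carnitine pools and 778 ± 38.2 in control pools (SD, n = 2 pools each), a log2FC of 1.18 (SE 0.24). Here the carnitine pools lay farther apart than the control pools, with carnitine pool 1 at 1.44 times pool 2. Without carnitine pool 1 the log2FC was 0.91, and without carnitine pool 2 it was 1.44.
MANF, a secreted and ER-resident factor that binds BiP, had 7349 and 5640.5 in carnitine pools, against 3265 and 2919 in control pools. The means were 6495 ± 1208 in carnitine pools and 3092 ± 244 in control pools (SD, n = 2 pools each), and the log2FC was 1.06 (SE 0.21). Both carnitine pools were well separated from both control pools, the nearest pair of pools differing by 1.73-fold.

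**Figure D1:**
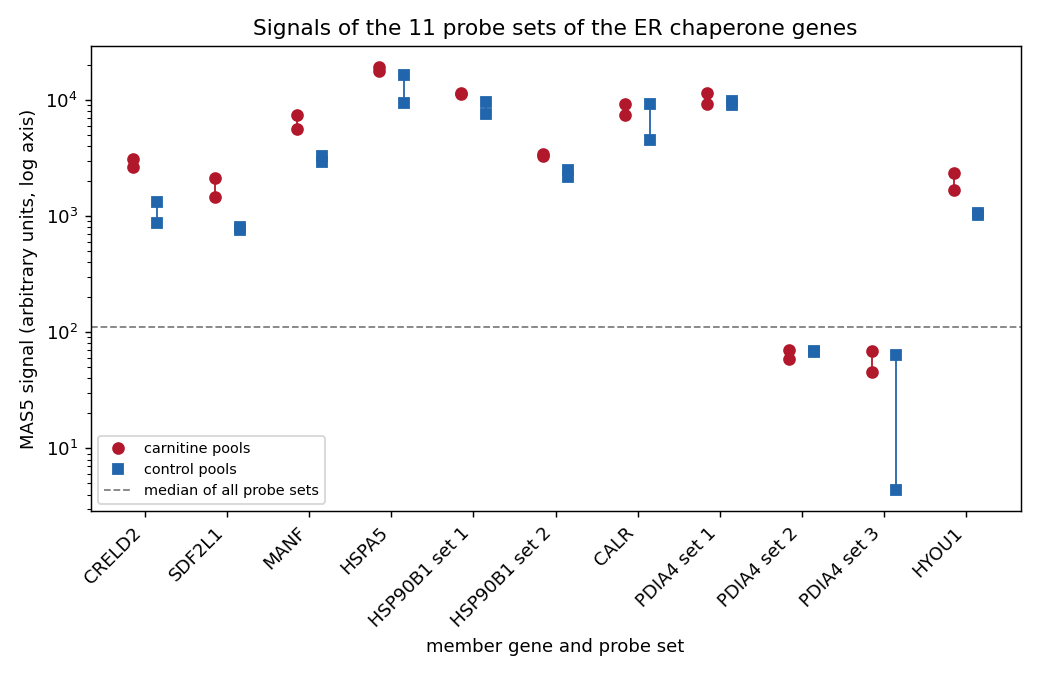
MAS5 signal of the 11 probe sets of the 8 genes on a log axis, where circles are the 2 carnitine pools and squares the 2 control pools, with lines between pools of the same diet and a dashed line at the median signal of all probe sets; set 1 is the brightest of a gene. The circles lie above the squares with a clear gap for CRELD2, SDF2L1, MANF and HYOU1, and the diets overlap for CALR and for all 3 sets of PDIA4.

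Among the large chaperones, HYOU1, a member of the HSP70 superfamily that acts as nucleotide exchange factor of BiP, had 2337 and 1687 in carnitine pools, against 1066 and 1012 in control pools. Its log2FC was 0.93 (SE 0.22), and the lower carnitine pool was 1.58 times as high as the higher control pool. HYOU1 thus shared with SDF2L1 and MANF control pools that lay close together and a higher signal in carnitine pool 1 than in pool 2.
HSPA5, the central HSP70 chaperone of the ER, gave 17771 and 19116 in carnitine pools, against 16477 and 9415 in control pools. The log2FC was 0.57 (SE 0.28). The pools did not overlap, but control pool 1 came within 1.08-fold of the lower carnitine pool, and the size of the difference rested on control pool 2. Without control pool 2 the log2FC was 0.16, and without control pool 1 it was 0.97.
HSP90B1, the HSP90 of the ER, has 2 probe sets, and both were higher in both carnitine pools. The brighter gave 11333 and 11156 in carnitine pools, against 7519 and 9498 in control pools, a log2FC of 0.41 (SE 0.20). The other gave 3280.15 and 3417 in carnitine pools, against 2174 and 2480.1 in control pools, a log2FC of 0.53 (SE 0.18). The carnitine pools of each probe set were nearly level, and control pool 1 was the lowest of the 4 arrays in both. Both probe sets carry the same gene symbol and were read from the same pools, so that they are not independent. The brighter gave 0.24 without control pool 1 and 0.58 without control pool 2.

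CALR, the soluble lectin and calcium-binding chaperone, had 9269 and 7342 in carnitine pools, against 4549.5 and 9254 in control pools. Control pool 2 was as bright as the brighter carnitine pool, so that the diets overlapped, and the log2FC of 0.35 (SE 0.33) was of the size of its error. It turned to -0.17 without control pool 1 and was 0.86 without control pool 2.
PDIA4, a protein disulphide isomerase (ERp72), has 3 probe sets. The bright one gave 11530 and 9221 in carnitine pools, against 9797 and 8965 in control pools, which overlap (log2FC of 0.14, SE of 0.20, and -0.023 without carnitine pool 1). The other 2 lay below 111, the median signal of all probe sets. The first of these gave 58.4 and 70.2 in carnitine pools, against 68.8 and 68.0 in control pools (log2FC of -0.096, SE of 0.45, and 0.037 without carnitine pool 1). The dimmest gave 45.5 and 69.0 in carnitine pools, against 4.37 and 63.9 in control pools. Its log2FC of 1.74 (SE 1.19) came from control pool 1 alone and was -0.19 without it. The 3 probe sets of PDIA4 therefore gave 3 different fold changes. That of the bright set has the smallest standard error from the fit, which shares spread across probe sets of similar signal. Within diets, the SD of log2 signal was 0.17 for the bright set. It was 0.13 for the first dim set and 1.96 for the dimmest.

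Both carnitine pools were above both control pools for 7 of the 11 probe sets, all 7 of them above the median signal, and for 6 of the 8 genes. Over all probe sets the share was 19.2%, and over the 11999 above the median signal it was 21.9%. No member probe set had both carnitine pools below both control pools, against 20.4% of all probe sets and 22.0% of the brighter ones. A difference of 2-fold or more, carnitine higher, was seen for CRELD2, SDF2L1, MANF and the dimmest probe set of PDIA4, which makes 4 of 11, against 8.03% of all probe sets and 2.13% of the brighter ones. Nothing about the members is read from these counts, since the same contrast chose them. With each pool left out in turn, 8 or 9 of the 11 probe sets had every carnitine pool above every control pool, a count that needs fewer comparisons then, and the median over the 8 genes lay between 0.66 and 0.97.

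**Figure D2:**
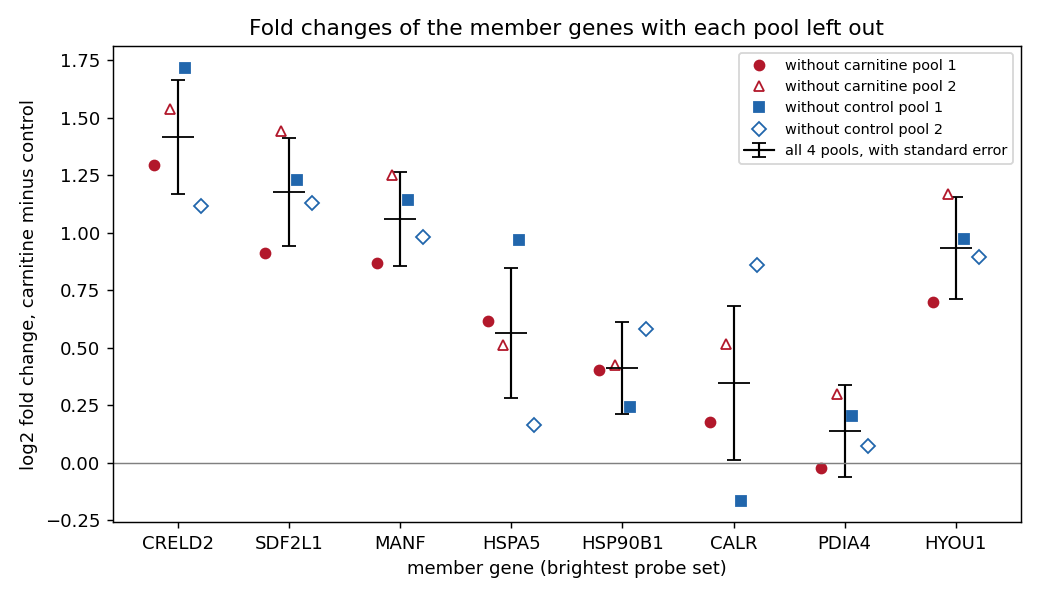
Log2 fold change, carnitine minus control, of the brightest probe set of each of the 8 genes, with a black dash and bar for all 4 pools and the standard error of the fit, red symbols for fits without 1 carnitine pool and blue symbols for fits without 1 control pool. CRELD2, SDF2L1, MANF and HYOU1 stay between 0.70 and 1.72, HSPA5 spans 0.16 to 0.97, and CALR and PDIA4 reach below 0.

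The 8 genes did not share a single profile over the arrays. In CRELD2, SDF2L1, MANF and HYOU1 the 4 arrays kept 1 order, with carnitine pool 1 brightest, then carnitine pool 2, control pool 1 and control pool 2. The ratio of carnitine pool 1 to carnitine pool 2 was 1.18 in CRELD2, 1.44 in SDF2L1, 1.30 in MANF and 1.39 in HYOU1. In the control pools the corresponding ratio was 1.52 in CRELD2 and between 1.05 and 1.12 in the other 3. HSPA5, HSP90B1, CALR and the bright probe set of PDIA4 also had their lowest signal in a control pool. This was control pool 2 for HSPA5 and PDIA4 and control pool 1 for the other 2. CALR had a ratio of 0.492 between the control pools, the widest within-diet gap among the 9 member probe sets above the median signal.
The mean profile of CRELD2, SDF2L1 and MANF, each centred on its mean over the 4 arrays, served as a yardstick. The Euclidean distance to it was 0.33 log2 units for HYOU1, 0.83 for HSPA5, 0.95 for HSP90B1, 1.09 for PDIA4 and 1.27 for CALR. Set among 6042 other probe sets with 1 gene symbol and a signal above the median, HYOU1 would take rank 10 by closeness, HSPA5 rank 439 and CALR rank 2605.

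**Figure D3:**
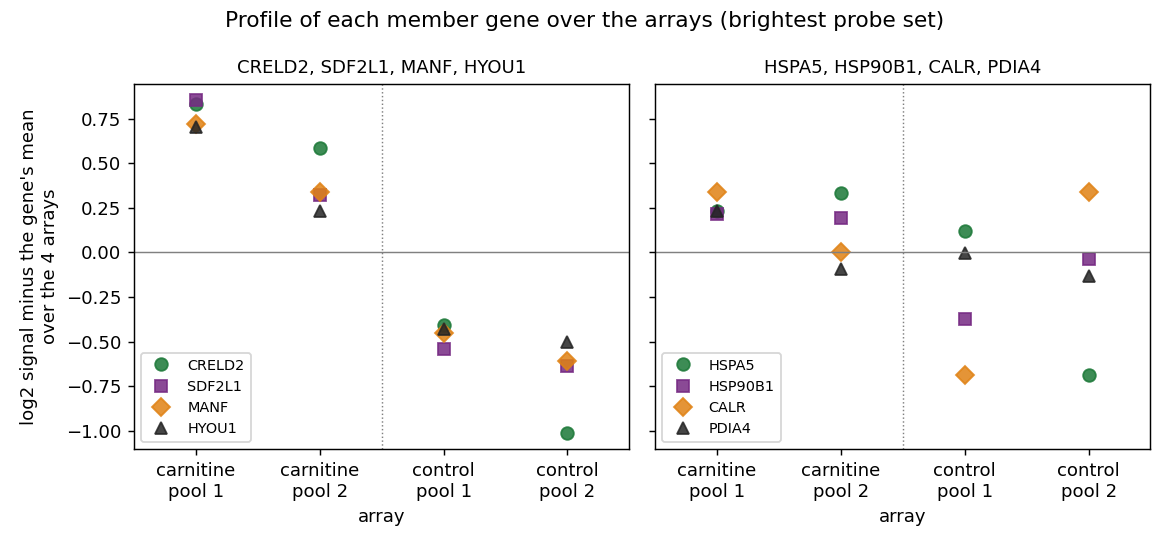
Log2 signal minus its mean over the 4 arrays, for the brightest probe set of a gene, by array, with the carnitine pools left of the dotted line. The left panel shows CRELD2, SDF2L1, MANF and HYOU1, whose carnitine values are all above 0 and whose control values are all below 0, and the right panel shows HSPA5, HSP90B1, CALR and PDIA4, whose arrays stand in different orders, with HSPA5 lowest in control pool 2 at -0.69 and CALR lowest in control pool 1 at -0.69.

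The 10 probe sets nearest to that profile over the 4 arrays were those of LGALS8, C17H20orf27, TIMM8A, CKAP4, LRRC59, PREB, BET1, TK2, RAE1 and RRS1, at distances between 0.096 and 0.33 log2 units. They were chosen on their closeness to genes that differ between the diets, so that their differences are a description too. CKAP4, a membrane protein of ER sheets, had 2984 and 2018 in carnitine pools, against 1094 and 1115 in control pools, and its other 2 probe sets were also higher in both carnitine pools (log2FCs of 1.88 and 0.68 beside 1.15). LRRC59, a ribosome-binding protein of the ER membrane, had 1815 and 1736 in carnitine pools, against 800 and 755 in control pools, and its other, very dim probe set gave 0.42 (SE 0.93).
PREB, the exchange factor that starts COPII coats at ER exit sites, had 1332 and 1103 in carnitine pools, against 724 and 491 in control pools. Its other 2 probe sets lay below the median signal and overlapped. BET1, a SNARE of transport between ER and Golgi, had 798 and 781 in carnitine pools, against 423 and 329 in control pools. Of the remaining 6, TIMM8A is a chaperone of the mitochondrial intermembrane space, TK2 a mitochondrial thymidine kinase, RAE1 an mRNA export factor, RRS1 a factor of ribosome assembly and LGALS8 a galectin. Their log2FCs lay between 0.97 and 1.24, as did that of the listed C17H20orf27 probe set, the dimmest of 3. The brightest probe set of C17H20orf27 overlapped between the diets, with a log2FC of -0.034.

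Other genes of the ER were taken from 8 lists that leave the members out, and 99 of the 158 listed genes had a probe set with 1 symbol, 91 of them above the median signal. No gene passed the test: 0 of the 99 had an adjusted p under 0.05 in limma, as against 1 of all probe sets (0.00417%), 0 in the analysis of variance of the study's statistics section and 0 in limma without a variance trend. At an unadjusted p under 0.05, 11 were higher and 1 was lower in carnitine pools in limma, which is 11.1% and 1.01% of the 99. The shares were 4.72% and 3.93% over all probe sets and 6.74% and 5.24% among the brighter ones. The count of 11 depended on the variance model and on the pools. It was 4 in the analysis of variance (with 2 lower), 4 in limma without a variance trend, 4 without carnitine pool 1, 4 without carnitine pool 2, 9 without control pool 1 and 14 without control pool 2. Both carnitine pools were above both control pools for 32 of the 99 genes (32.3%) and below for 14 (14.1%), where the brighter probe sets of the array had 21.9% above and 22.0% below. The median log2FC of the 99 was 0.067. The median of the 8 members was thus 0.75 against 0.067 for the other listed genes, a gap that the choice of the members sets.

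**Figure D4:**
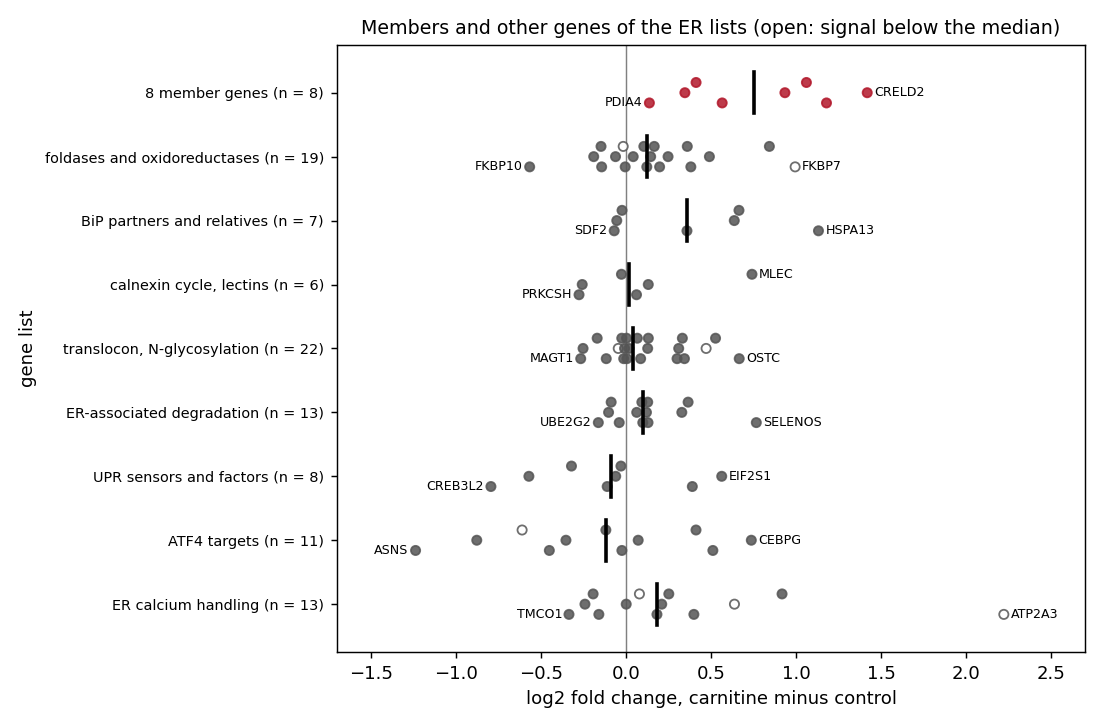
Log2 fold change, carnitine minus control, of the 8 members (red, top line) and of 99 other ER genes in 8 lists (grey, UPR standing for the unfolded protein response), 1 point per gene from its brightest probe set, with a black tick at the median of each line and open points for signals below the median of all probe sets. The medians of the 8 lists lie between -0.12 and 0.36, and the lowest and highest gene of each line is named.

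Among the lists, partners of BiP and close relatives of the members had the highest median log2FC, 0.36 over 7 measured genes. Of these 7, by the brightest probe set of each, 3 had both carnitine pools higher (42.9%, beside 21.9% of the brighter probe sets). Both were lower for 0 (beside 22.0%), and the pools of 4 overlapped. The 3 include DNAJB9, whose probe sets disagreed. The median is the value of DNAJB11, whose pools overlapped. Without DNAJB9 the median would fall between 0.36 (DNAJB11) and -0.023 (SEC63), so that the rank of the list is not secure. HSPA13, a small HSP70-type protein of microsomes, had 1437 and 1755 in carnitine pools, against 867 and 606 in control pools (log2FC of 1.13, SE of 0.25, limma adjusted p = 0.345). CRELD1, the paralogue of CRELD2, gave 174 and 279 in carnitine pools, against 148 and 130.4 in control pools (log2FC of 0.66, SE of 0.35, limma adjusted p = 0.657). SDF2, the paralogue of SDF2L1, gave 690.4 and 678 in carnitine pools, against 606 and 850.2 in control pools, which overlap (log2FC of -0.069, SE of 0.24).
DNAJB9, a J-protein of BiP known as a target of the XBP1 branch, had 1310.4 and 1654 in carnitine pools, against 1189 and 754 in control pools (log2FC of 0.64, SE of 0.27, limma adjusted p = 0.577). Its 3 probe sets disagreed, since the other 2, also above the median signal, overlapped between the diets and gave -0.18 (SE 0.55) and -0.43 (SE 0.45). No direction can be given for DNAJB9 as a gene. DNAJB11, DNAJC3 and SEC63, further J-proteins of the ER, overlapped between the diets, with log2FCs of 0.36, -0.054 and -0.023.

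Of 19 measured foldases and oxidoreductases, 9 had both carnitine pools higher (47.4%, beside 21.9% of the brighter probe sets), 0 both lower (beside 22.0%) and 10 overlapping pools, with a median log2FC of 0.12. FKBP14, a prolyl isomerase of the ER, had 1049.75 and 1409 in carnitine pools, against 577 and 797 in control pools (log2FC of 0.84, SE of 0.26, limma adjusted p = 0.446), and its other 2 probe sets gave 0.66 and 1.18. FKBP7, of the same family, was dim at 130.3 and 146 in carnitine pools, against 58.2 and 82.3 in control pools. These 2 prolyl isomerases were the members of the list under an unadjusted limma p of 0.05. FKBP10 and FKBP2 overlapped between the diets and had log2FCs of -0.57 and -0.19. FKBP11 was higher in both carnitine pools, at 5192 and 5550, against 4820 and 5045 in control pools (log2FC of 0.12, SE of 0.18).
Among the disulphide isomerases, PDIA3, which works with CALR and calnexin, had 10159 and 8928 in carnitine pools, against 5407 and 8499 in control pools (log2FC of 0.49, SE of 0.25, limma adjusted p = 0.641). Its second probe set gave 0.51 and the remaining, very dim one -0.26. PDIA6 gave 8725 and 7713 in carnitine pools, against 6648 and 7695 in control pools (log2FC of 0.20, SE of 0.19, limma adjusted p = 0.814). In both genes control pool 1 was the lowest array, as it was for HSP90B1 and CALR.

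The 6 measured genes of the calnexin cycle and cargo lectins had log2FCs between -0.28 and 0.74, with a median of 0.018. Of these 6, 1 had both carnitine pools higher (16.7%, beside 21.9% of the brighter probe sets), 0 both lower (beside 22.0%) and 5 overlapping pools. CANX, the membrane-bound relative of CALR, had 8068 and 8411 in carnitine pools, against 8411 and 8367 in control pools (log2FC of -0.026, SE of 0.18, limma adjusted p = 0.982, and with a sign that turns under quantile normalization and median centring). Of its other probe sets, the 2 above the median signal gave -0.065 and -0.20, with both carnitine pools lower, and the 3 below it overlapped. MLEC, a lectin of the ER membrane that binds immature glycans, had 2458 and 1757 in carnitine pools, against 1469 and 1054 in control pools (log2FC of 0.74, SE of 0.26, limma adjusted p = 0.489). PRKCSH and GANAB, the subunits of glucosidase II, overlapped between the diets at -0.28 and -0.26. MLEC was the member of this list with both carnitine pools above both control pools.
Of 22 translocon and N-glycosylation genes, 8 had both carnitine pools higher (36.4%), 4 both lower (18.2%) and 10 overlapping pools (median log2FC 0.042). Among the brighter probe sets of the array the shares were 21.9% and 22.0%. OSTC, a subunit of the oligosaccharyltransferase, had 2812 and 2953 in carnitine pools, against 1572 and 2099 in control pools (log2FC of 0.67, SE of 0.21, limma adjusted p = 0.460). SEC61G, a subunit of the translocon, had 7025 and 8263 in carnitine pools, against 4640.3 and 6029 in control pools (log2FC of 0.53, SE of 0.21, limma adjusted p = 0.553). SPCS1, a signal peptidase subunit, gave 2918 and 3319 in carnitine pools, against 2440.0 and 2506 in control pools (log2FC of 0.33, SE of 0.18, limma adjusted p = 0.671). Other subunits of the oligosaccharyltransferase had small log2FCs of both signs. STT3A and DAD1 were higher in both carnitine pools, at 0.31 (SE 0.24) and 0.30 (SE 0.20). MAGT1 and KRTCAP2 were lower in both, at -0.27 (SE 0.19) and -0.25 (SE 0.18), and RPN1 and DDOST overlapped, at 0.0034 and 0.086.

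In ER-associated degradation, 4 of 13 measured genes had both carnitine pools higher (30.8%) and 1 both lower (7.69%), with a median log2FC of 0.099. The brighter probe sets of the array had 21.9% higher and 22.0% lower. SELENOS, a selenoprotein of the retrotranslocation complex, had 1567 and 1501 in carnitine pools, against 1177 and 691 in control pools (log2FC of 0.77, SE of 0.28, limma adjusted p = 0.509). VCP, the ATPase that extracts substrates, gave 3662 and 3503 in carnitine pools, against 2505 and 3249 in control pools (log2FC of 0.33, SE of 0.20, limma adjusted p = 0.696). UBE2J2, an E2 enzyme of this route, gave 848 and 850.3 in carnitine pools, against 523 and 831 in control pools (log2FC of 0.37, SE of 0.27, limma adjusted p = 0.740). A second, dimmer probe set of VCP overlapped at 0.17. The substrate recognition factor EDEM2 and the channel component DERL1 were near 0, at 0.063 with overlapping pools and at -0.10 with both carnitine pools lower. HERPUD1, SEL1L, SYVN1 and EDEM1 were not analysed here, since no probe set carries their symbol alone.

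The list of sensors and factors of the unfolded protein response had a median log2FC of -0.085, beside -0.018 over all probe sets. Of its 8 measured genes, 1 had both carnitine pools higher (12.5%, beside 21.9% of the brighter probe sets), 3 both lower (37.5%, beside 22.0%) and 4 overlapping pools. XBP1, the transcription factor spliced by IRE1, had 6227 and 5413 in carnitine pools, against 8833 and 5946 in control pools, which overlap (log2FC of -0.32, SE of 0.24, limma adjusted p = 0.743). Its splicing was not analysed here. ATF4, the factor translated when PERK is active, had 5571 and 3772 in carnitine pools, against 6160.2 and 3707 in control pools (log2FC of -0.060, SE of 0.30, limma adjusted p = 0.974). In ATF4 the 2 pools of each diet lay far apart, and the sign turned without carnitine pool 2 or control pool 1. DDIT3 (CHOP), a factor of prolonged ER stress, had 296 and 433 in carnitine pools, against 370.3 and 202 in control pools, again overlapping (log2FC of 0.39, SE of 0.37, limma adjusted p = 0.809). It was -0.048 without control pool 2. ERN1, EIF2AK3 and ATF6 were not analysed here.
EIF2S1, the translation factor subunit that PERK phosphorylates, had 1736 and 2247 in carnitine pools, against 1272 and 1405 in control pools (log2FC of 0.56, SE of 0.21, limma adjusted p = 0.522). CREB3L2, an ER-anchored factor of the same family as CREB3L4, had 331 and 166 in carnitine pools, against 407 and 405 in control pools (log2FC of -0.79, SE of 0.36, limma adjusted p = 0.600). CREB3L4 gave 197 and 134 in carnitine pools, against 284 and 205 in control pools (log2FC of -0.57, SE of 0.34, limma adjusted p = 0.695).

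Targets of ATF4 had a median log2FC of -0.12 over 11 measured genes. Of these 11, 2 had both carnitine pools higher (18.2%, beside 21.9% of the brighter probe sets), 3 both lower (27.3%, beside 22.0%) and 6 overlapping pools. ASNS, asparagine synthetase, had 259 and 122 in carnitine pools, against 552 and 317 in control pools (log2FC of -1.24, SE of 0.44, limma adjusted p = 0.496), and it was the 1 gene of the 8 lists that was lower at an unadjusted p under 0.05. CEBPB gave 2760.4 and 3241 in carnitine pools, against 3830.1 and 4359 in control pools (log2FC of -0.45, SE of 0.19, limma adjusted p = 0.577). CEBPG, its relative and partner of ATF4, gave 209 and 285 in carnitine pools, against 142 and 151 in control pools (log2FC of 0.74, SE of 0.32, limma adjusted p = 0.579). PPP1R15A, PHGDH and ATF3 overlapped between the diets, with log2FCs of -0.12, 0.072 and 0.41.

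ER calcium handling had a median log2FC of 0.18 over 13 measured genes. Both carnitine pools were higher for 4 (30.8%) and lower for 3 (23.1%), where the brighter probe sets of the array had 21.9% and 22.0%. ATP2A2 (SERCA2), the pump that fills the ER with calcium, had 5611 and 5301 in carnitine pools, against 3271 and 2549 in control pools (log2FC of 0.92, SE of 0.20, limma adjusted p = 0.348). All 4 probe sets of ATP2A2 lay above the median signal and were higher in both carnitine pools, with log2FCs of 0.90, 0.67 and 0.87 for the other 3. ATP2A3, its relative, was dim at 36.1 and 17.8 in carnitine pools, against 5.61 and 5.28 in control pools. Its log2FC of 2.22 (SE 0.83, limma adjusted p = 0.522) thus describes signals far below the median. The other ATP2A3 probe set was dimmer still and overlapped between the diets, with a log2FC of 0.12 (SE 1.18). TMCO1, a calcium leak channel, gave 1402 and 1536 in carnitine pools, against 1997 and 1714 in control pools (log2FC of -0.33, SE of 0.19, limma adjusted p = 0.686). The calcium-binding proteins CALU and RCN2 overlapped between the diets, at 0.0017 and 0.21.

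Several measures other than the ER genes differed between the arrays, and their part in the values above was not tested. The 3' to 5' signal ratio of GAPDH, which reads the completeness of the labelled RNA, came to 18.7 and 16.1 for the carnitine pools, against 12.5 and 11.6 for the control pools, and that of actin (ACTG1) was 157 and 136 for the carnitine pools, against 91.2 and 86.7 for the control pools. That of the elongation factor EF1A overlapped, at 23.4 and 29.6 for the carnitine pools, against 57.9 and 18.2 for the control pools. All of these ratios were high on all 4 arrays, the lowest being 11.6, so that the pools of both diets read as strongly biased to the 3' end. Plasma cells are rich in the same chaperones, and 4 of 12 plasma and B cell markers were measured, 2 of them above the median signal. Their summed signal was 4786 and 4421 in carnitine pools, against 5899 and 3147 in control pools, which overlap. SDC1 was the brightest of the 4 in every pool, at 3189 and 2540 in carnitine pools, against 3095 and 1583 in control pools. It therefore made up the largest part of the sum. Of the 4 genes, 0 had both carnitine pools higher and 2 both lower, where all probe sets had 19.2% and 20.4%. TNFRSF17, a plasma cell receptor, was below the median signal in every pool, at 7.35 and 19.6 in carnitine pools, against 51.2 and 43.9 in control pools. The summed hepatocyte markers were 430574 and 396068 in carnitine pools, against 477965 and 433726 in control pools, which do not overlap. Of the 14 genes, 1 was higher and 7 were lower in both carnitine pools, where the brighter probe sets of the array had 21.9% and 22.0%. Control pool 2, which set the size of the HSPA5 difference, also had the highest sum of stellate cell and fibroblast markers (9 of 11 measured). The sums were 6919 and 6504 in carnitine pools, against 5120 and 14745 in control pools. ACTA2 and VIM gave 5533 and 4384 of the sum in control pool 2. DCN, LUM, PDGFRB and DES were also highest in that pool, while COL1A2, COL3A1 and RGS5 were not. Bile duct markers (6 of 8 measured) had their highest sum in control pool 2 too. Their sums were 3462 and 2787 in carnitine pools, against 2336 and 8436 in control pools. SPP1 alone gave 6231 of the sum in control pool 2. KRT19 and EPCAM were also highest in that pool, while CLDN4, CFTR and SOX9 were not. Summed markers of Kupffer cells, of T and NK cells and of endothelial cells overlapped between the diets. The endothelial sum was highest in control pool 2 as well, at 6416. Summed markers of red cells (3 of 8 measured) were 771 and 574 in carnitine pools, against 1027 and 1362 in control pools. Most of that difference was ALAS2, at 358 and 240 in carnitine pools, against 644 and 917 in control pools. AHSP was lower in both carnitine pools too, at 103.5 and 34.8, against 104.8 and 143.6. HBB overlapped, at 310 and 299 in carnitine pools, against 278 and 301 in control pools.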

How the data were processed

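The authors deposited 1 table of MAS5 signal intensity on a linear scale for 4 single-colour arrays. Software given in the submitters' processing notes was GCOS 1.1.2, MAS5 5.0 and Affymetrix Expression Console 1.1. The trimmed mean of each array was 500.1, and the medians lay between 109 and 114. Precision is limited by the number of arrays. Detection calls were not used here.
Signals were log2-transformed as they stood. The table holds 24123 probe sets, of which 124 are controls and the other 23999 entered the fit unfiltered, using R 4.3.3 and limma 3.58.1 (lmFit, then eBayes with a trend, 2 residual degrees of freedom) and Benjamini-Hochberg adjustment over all of them at 0.05. Fold changes are differences of mean log2 signals, carnitine minus control. The smallest two-sided p of an exact permutation test over 2 against 2 pools is 0.333. The labels call the pools biological replicates. The fit was tested on simulated data.
Symbols came from the array's annotation, checked against a RefSeq gene table of Sscrofa11.1. A single symbol stood beside 10069 probe sets, several beside 198 and none beside 13732, and the last 2 kinds were not assigned to genes. The array's annotation names no build, so that no coordinates are given. Promoter and protein sequences were not used here.
The members and lists were chosen with earlier results of these data known. The text names every member probe set, of each list the 3 genes with the smallest p, XBP1, ATF4, DDIT3, DNAJB9, HERPUD1 (not analysed here), PDIA6 and CANX, and the 10 nearest profiles. Other list genes named (SDF2, DNAJB11, DNAJC3, SEC63, FKBP10, FKBP2, FKBP11, RPN1, DDOST, STT3A, DAD1, MAGT1, KRTCAP2, EDEM2, DERL1, PPP1R15A, PHGDH, ATF3, CALU, RCN2) were chosen after their values were seen. The brightest probe set stands for a gene. HSPA13, SEC61G, SPCS1 and ATF4 each have another probe set, below the median signal and with overlapping pools. Alternatives were quantile normalization, centring on the array median, a floor at the 25th percentile, an offset of 64, a filter at the median signal, arithmetic means, other variance models, a replicate block, the mean over the probe sets of a gene and leaving out each pool.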

Additional observations from a re-analysis of the deposited data

How the results depend on the processing

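The median log2 fold change of the 8 members lay between 0.66 and 0.97 with a pool left out and between 0.73 and 0.81 under the other alternatives, and the 7 of 11 probe sets with both carnitine pools higher stayed 7 under each scaling, floor, offset and filter. For the other ER genes, 0 passed the adjusted p under any alternative. The 11 higher at an unadjusted p became 4 in limma without a variance trend, 4 in the analysis of variance, 7 with the mean over the probe sets of a gene, and between 4 and 14 with a pool left out. The 1 lower became 2 with the floor at the 25th percentile, 2 with the offset of 64, 0 without a variance trend, 2 in the analysis of variance and between 0 and 3 with a pool left out. Their median of 0.067 lay between 0.023 and 0.12 with a pool left out. The causes were not tested. The sign of CANX turned under quantile normalization (0.035) and centring on the array median (0.012), and its values with a pool left out lay between -0.056 and 0.0037. Those of DDIT3 lay between -0.048 and 0.83, and those of ATF4 between -0.43 and 0.31. The labels do not say whether same-numbered pools were paired. Their deviations correlated at r = 0.0049 across probe sets, a value that cannot settle this. With the replicate block 10 other ER genes were higher and 2 lower at an unadjusted p. Dim signals vary most across the array as a whole, which limits what can be said of the 2 dim PDIA4 probe sets.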
